A study of Mus musculus with 17 samples.

Results

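The replication-dependent histone genes of the mouse autosomes were examined for H3.3 occupancy in pachytene spermatocytes with and without ARID1A. They were taken as the protein-coding genes of the GENCODE M21 annotation (mm10 build) whose symbols begin with Hist1h, Hist2h, Hist3h or Hist4h, which gave 67 of the 20807 protein-coding genes on the 19 autosomes. The series held 17 CUT&RUN libraries, an assay in which an antibody-tethered nuclease releases DNA at bound sites. Of these, 12 were made with ARID1A antibodies and are not analysed here, 2 were H3.3 libraries from Arid1a WT and 3 were H3.3 libraries from Arid1a cKO spermatocytes. The floxed line was kept on a CD1 background. The WT males carried floxed Arid1a alleles (fl/fl or fl/+) without Cre. The cKO males were Arid1a fl/fl; Stra8-Cre Tg/0, a transgene that drives recombination from the spermatogonial stage onwards, so that the gene was removed in the germline and not in somatic cells. Deletion by this transgene is incomplete, and cKO preparations can hold spermatocytes that kept ARID1A. Spermatocytes were purified by sedimentation (Sta-Put) from pooled testes of adult males. Their purity could not be checked here, since a list of H3.3 peaks holds no marker of cell type. For each genotype there was 1 list, of the H3.3 peaks shared between its libraries, with no value per library, so that no spread between replicates and no test between genotypes could be had.

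Replication-dependent histone genes supply the bulk of H2A, H2B, H3, H4 and linker H1 during S phase. They are short, mostly without introns, lie in clusters, and their transcripts end in a conserved stem-loop in place of a poly(A) tail. NPAT and its partners gather at these clusters in a nuclear structure called the histone locus body. H3.3, by contrast, is a replacement variant that is laid down outside S phase and is encoded elsewhere, by H3f3a and H3f3b. The male germline also uses cluster genes of its own, among them Hist1h1t (the testis linker histone H1t), Hist1h2aa (the testis H2A, TH2A) and Hist1h2ba (the testis H2B, TH2B), which are expressed in spermatocytes long after the last S phase. The question put to the lists was whether H3.3 peaks lay at these genes, and at which of them.

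Of the 67 genes, 54 belonged to the Hist1 cluster on chromosome 13, 10 to Hist2 on chromosome 3, 2 to Hist3 on chromosome 11 and 1 to Hist4 on chromosome 6. By the histone encoded there were 6 H1, 18 H2A, 18 H2B, 12 H3 and 13 H4 genes. The gene models were simple, as 62 had 1 exon and 63 had 1 transcript start. The coding sequence began at the annotated start itself in 13 genes and within 100 bp of it in 59. Only Hist1h1d, at 1828 bp, and Hist1h2be, at 35168 bp, had more than 1 kb between the start used and the coding sequence.

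The upstream sequences of 4 Hist1 genes show the promoter letters on which these genes differ. Hist1h2ba and Hist1h4h had an H3.3 region in the cKO, Hist1h3d had the narrowest one, and the testis linker gene Hist1h1t had none. Each runs 5′ to 3′ on the strand of the gene, and capitals mark the TATA box as TATAAA, the CCAAT box, the GC box as CCGCCC and the octamer bound by POU factors as ATTTGCAT, on either strand. The windows are chr13:23934227-23934406 (minus strand) for Hist1h2ba, chr13:23530800-23531040 (plus) for Hist1h4h, chr13:23575513-23575753 (plus) for Hist1h3d and chr13:23695564-23695804 (plus) for Hist1h1t, read from the GRCm38 genome, the assembly behind mm10.
Hist1h2ba: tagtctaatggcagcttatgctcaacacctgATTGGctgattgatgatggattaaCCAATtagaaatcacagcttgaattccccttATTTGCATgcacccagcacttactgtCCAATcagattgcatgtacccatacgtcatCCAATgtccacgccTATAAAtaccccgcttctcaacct
Hist1h4h: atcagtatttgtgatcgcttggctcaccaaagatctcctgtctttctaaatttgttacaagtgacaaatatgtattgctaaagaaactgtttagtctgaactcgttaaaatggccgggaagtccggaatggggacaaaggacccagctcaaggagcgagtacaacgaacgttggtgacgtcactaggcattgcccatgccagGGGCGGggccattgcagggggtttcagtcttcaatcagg
Hist1h3d: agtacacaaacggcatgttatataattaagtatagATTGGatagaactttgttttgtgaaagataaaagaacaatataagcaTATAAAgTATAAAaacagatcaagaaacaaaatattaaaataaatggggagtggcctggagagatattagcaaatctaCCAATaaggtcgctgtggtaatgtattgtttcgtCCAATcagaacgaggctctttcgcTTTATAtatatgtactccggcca
Hist1h1t: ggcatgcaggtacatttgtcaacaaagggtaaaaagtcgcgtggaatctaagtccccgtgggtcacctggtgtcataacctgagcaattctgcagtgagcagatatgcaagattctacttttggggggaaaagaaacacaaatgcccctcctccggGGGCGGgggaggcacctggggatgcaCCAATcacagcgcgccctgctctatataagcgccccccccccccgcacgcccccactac
The Hist1h2ba window held 4 CCAAT motifs, 1 octamer and 1 TATAAA. Hist1h4h held 1 CCGCCC and none of the others, Hist1h3d held 3 TATAAA and 3 CCAAT motifs, and Hist1h1t held 1 CCAAT and 1 CCGCCC. Only exact matches were counted, so that the similar run tatataa near the end of the Hist1h1t window was not. A window without TATAAA may thus still hold a TATA-like sequence.

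No H3.3 peak of the Arid1a WT list lay within 1 kb of any of the 67 starts. This was so for the autosomes at large, since the WT list had a row at 0 of 20807 autosomal protein-coding genes (0.00%), and only 4 of its 228 rows lay on autosomes. The list held no region on chromosomes 13 and 11, while the nearest WT region was 2.52 Mb from the Hist2 genes (Hist2h2ab) and 5.86 Mb from Hist4h4. The absence of WT rows was thus shared by all autosomal genes and is not particular to the histone genes. It is an absence of called peaks and not of H3.3. From averaged coverage, the paper reports H3.3 above the IgG control at the starts of autosomal genes regulated by ARID1A in WT. That signal appeared stronger in cKO.

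In the Arid1a cKO list, 15 of the 67 genes (22.4%, Wilson 95% interval 14.1 to 33.7) had a row within 1 kb of a start. Among all autosomal protein-coding genes the share was 29.5% (6145 of 20807), which lies inside that interval. The 15 genes were served by 10 distinct regions, a region being the union of rows that overlap, because 5 regions were each within 1 kb of 2 genes. The fold given for a region is that of its listed peak over IgG, and it may come from a single cKO library. The intervals treat genes as independent, cover counting error only, and are too narrow for genes that share a region. All 15 genes lay in the Hist1 cluster (15 of 54, 27.8%, interval 17.6 to 40.9). None of the 10 Hist2 genes, the 2 Hist3 genes or Hist4h4 had a row.

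**Figure D1:**
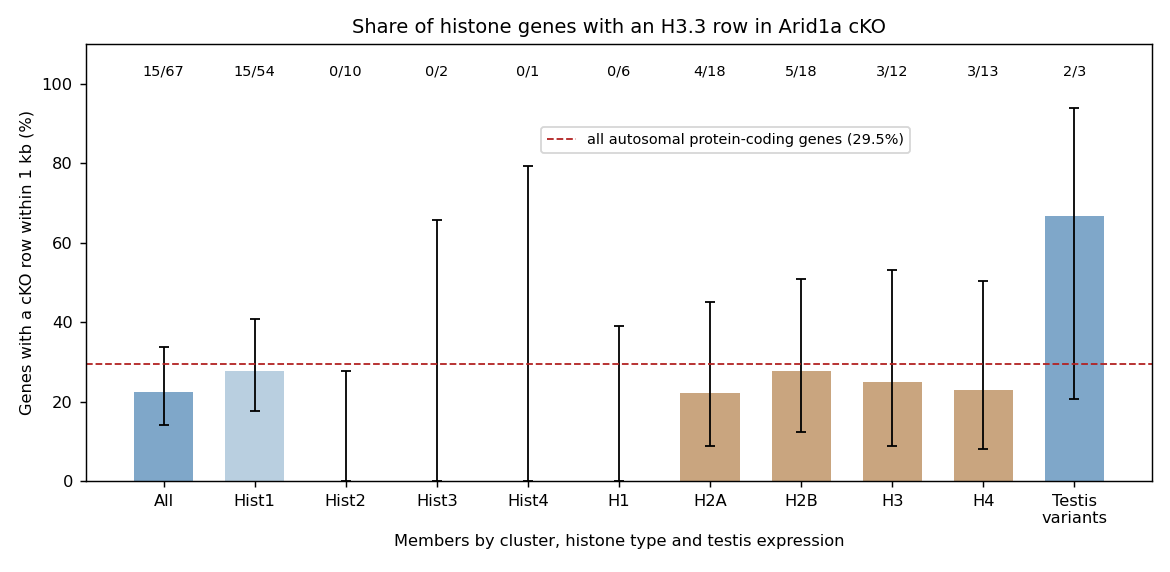
Share of histone cluster genes with a cKO H3.3 row within 1 kb of a transcript start, in percent, for all 67 genes, by cluster, by histone type and for the 3 testis variants. Bars are shares, error bars Wilson 95% intervals for counting error only, counts stand above and the dashed line is the 29.5% of all autosomal protein-coding genes. H1 and the Hist2, Hist3 and Hist4 clusters are at 0, and every core histone type lies between 22.2% and 27.8%.

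The core histone types did not stand apart from each other. A row was found at 4 of 18 H2A genes (22.2%), 5 of 18 H2B genes (27.8%), 3 of 12 H3 genes (25.0%) and 3 of 13 H4 genes (23.1%), and their intervals overlapped over most of their length. The linker histone genes differed in count, with 0 of 6, but the interval for 0 of 6 reached 39.0% and held the shares of all the other types. The nearest cKO region was 2603 bp from the start of Hist1h1a, 6708 bp from Hist1h1c, 11788 bp from Hist1h1t, 20527 bp from Hist1h1d, 46514 bp from Hist1h1e and 164574 bp from Hist1h1b. For Hist1h1d the start used lies 1828 bp upstream of the coding sequence. With the first coding base in place of the starts, the count over all 67 genes was again 15.

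The rows were not spread evenly along the Hist1 cluster, which spans 2219 kb of chromosome 13 and falls into 4 blocks where neighbouring members lie over 100 kb apart. The first block (chr13:21715763-21837530), with 18 genes, held no row at all. In the second (chr13:22035164-22043676) 3 of 5 genes had a row, in the third (chr13:23531050-23764406) 10 of 29, and in the last (chr13:23933773-23934851), which is the testis pair Hist1h2ba and Hist1h2aa alone, 2 of 2. The 3, 10 and 2 genes with a row in these later blocks were served by 2, 7 and 1 regions. Without the first block the share in Hist1 was 41.7% (15 of 36, interval 27.1 to 57.8). That interval holds the 29.5% of all autosomal protein-coding genes, so the later blocks were not shown to lie above it. In the first block the share was 0 of 18, for which the interval reached 17.6%, below the 29.5%. Intervals are too narrow where genes share a region. The blocks were defined by distance, but the contrast between the first block and the others was drawn after the counts had been seen.

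**Figure D2:**
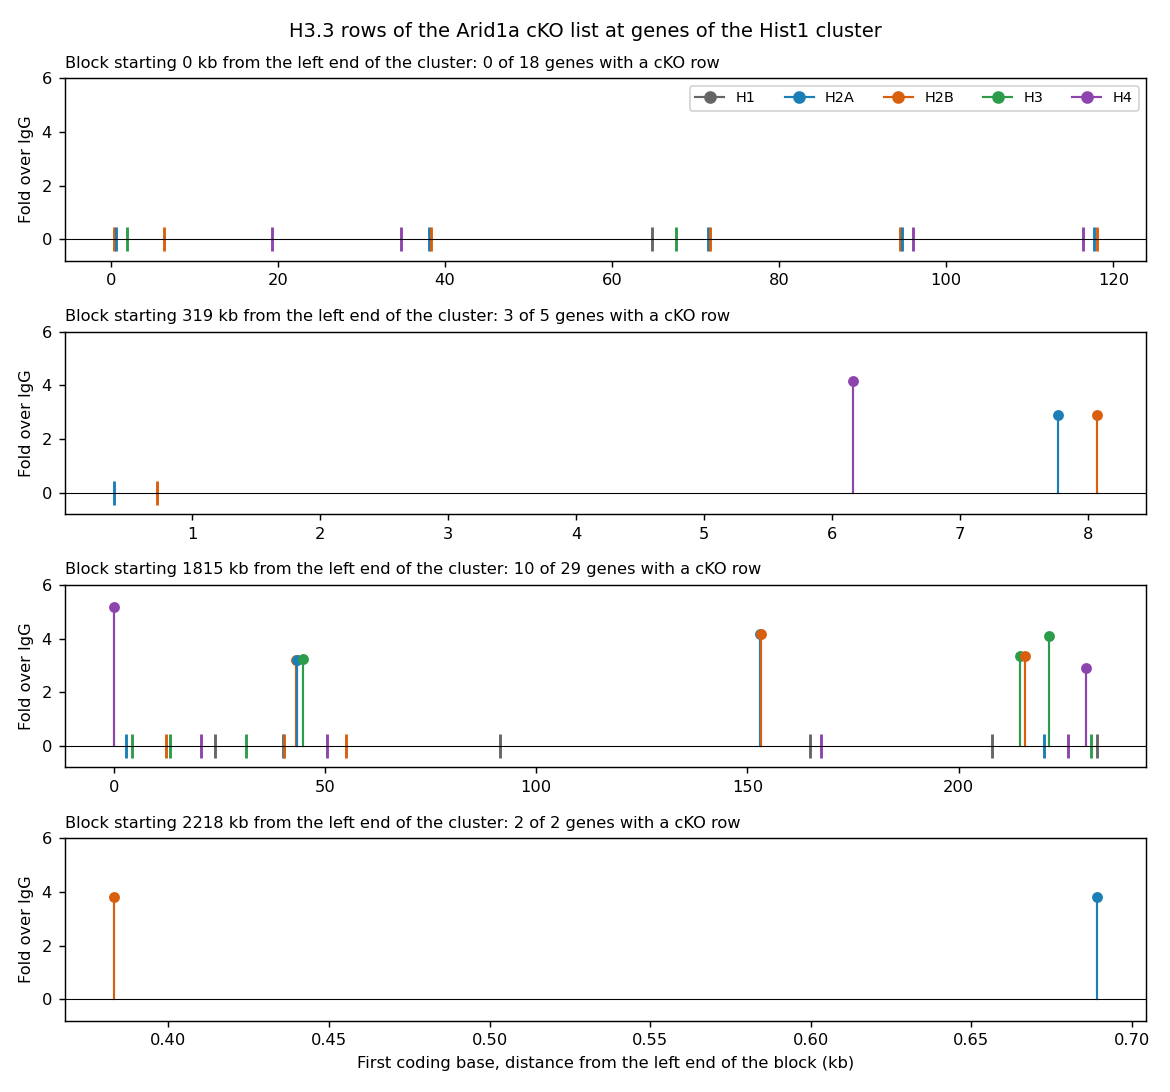
Fold enrichment over IgG of the cKO H3.3 region at each gene of the Hist1 cluster (y axis), against the position of the first coding base in its block in kb (x axis), with 1 panel for each of the 4 blocks and colours for the histone type. Circles on stems are genes with a row within 1 kb and upright ticks at 0 are genes with none, so that the first block shows 18 ticks and the last shows 2 circles at a fold of 3.82.

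Repeated sequence moved with part of this pattern. Paired reads of near-identical gene copies cannot be placed with certainty, and the share of 50-mers within 1 kb of the start that occur once in the genome ran from 0% to 100% among the 67 genes. It was below 50% for 10 genes, none of which had a row. They were 6 genes of the first block (Hist1h2bq, Hist1h2ao, Hist1h4m, Hist1h4n, Hist1h2ap and Hist1h2br, all under 10%) and 4 of Hist2 (Hist2h3c2, Hist2h2aa2, Hist2h2aa1 and Hist2h3c1). Among all autosomal protein-coding genes below 50%, 7 of 862 (0.812%) had a row. Above 50% the histone genes did not follow the genes at large. Between 50% and 70% unique, 6 of 12 histone genes (50.0%) had a row against 5.56% of all genes, while above 90% it was 2 of 18 (11.1%) against 32.8%. These counts rest on few regions. The 6 genes were the pairs Hist1h2ag and Hist1h2bj (fold 2.90), Hist1h2bf and Hist1h2ad (3.21), and Hist1h2ac and Hist1h2bc (4.19), with 1 region to each pair. The 2 genes were Hist1h2ba and Hist1h2aa, which also shared 1 region. The other 12 genes of the first block, at 70.0% to 100%, also had none, and neither had the other 6 genes of Hist2. In the second block, where 3 of 5 genes had a row, the median unique share was 69.0%, against 70.0% in the first. The part of read placement in these counts was otherwise not tested.

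The strongest region lay on Hist1h4h, an H4 gene at the left end of the third block (ENSMUSG00000060981.7). It spanned chr13:23531064-23531499, 436 bp, with a fold over IgG of 5.19 and a -log10 q of 6.76, the only one of the 10 regions to pass 5 on that scale. Its fold was above 81.4% of the 6179 autosomal cKO regions and ranked 32 of the 223 on chromosome 13. The region began 14 bp downstream of the start and had 70.9% of its length in the coding sequence. The 300 coding bases from the first one onwards all lay inside it, as the capitals below show.

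Hist1h4i, an H4 gene of the second block, had a region of 213 bp (chr13:22041136-22041348) with a fold of 4.18 and a -log10 q of 2.89, 88.3% of it in the coding sequence. The H3 gene Hist1h3b had 216 bp (chr13:23752303-23752518) at a fold of 4.08, with 64.4% in the coding sequence. Hist1h4a had 216 bp as well (chr13:23760848-23761063) at a fold of 2.92, among the lowest, with 99.5% in the coding sequence. The narrowest region, 173 bp (chr13:23575872-23576044) at a fold of 3.25, lay wholly within the coding sequence of the H3 gene Hist1h3d. These 5 regions, each near 1 gene only, thus all began after the annotated transcript start. The distance was only 14 bp at Hist1h4h and Hist1h4i and 36 bp at Hist1h3b, and it was 109 bp at Hist1h3d and 167 bp at Hist1h4a.

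The coding sequences under 4 of the regions are shown for their first 300 bases, with the bases inside the H3.3 region in capitals. They are chr13:23531115-23531414 (plus strand) for Hist1h4h, chr13:22041024-22041323 (minus) for Hist1h4i, chr13:23575802-23576101 (plus) for Hist1h3d and chr13:23933857-23934156 (minus) for Hist1h2ba.
Hist1h4h: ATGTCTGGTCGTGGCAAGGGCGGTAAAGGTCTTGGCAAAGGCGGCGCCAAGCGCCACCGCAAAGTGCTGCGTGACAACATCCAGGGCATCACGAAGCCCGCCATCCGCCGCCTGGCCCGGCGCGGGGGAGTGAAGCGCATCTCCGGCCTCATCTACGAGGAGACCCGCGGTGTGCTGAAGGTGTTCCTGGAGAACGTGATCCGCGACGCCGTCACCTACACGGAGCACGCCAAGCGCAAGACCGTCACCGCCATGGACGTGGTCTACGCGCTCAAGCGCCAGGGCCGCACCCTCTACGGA
Hist1h4i: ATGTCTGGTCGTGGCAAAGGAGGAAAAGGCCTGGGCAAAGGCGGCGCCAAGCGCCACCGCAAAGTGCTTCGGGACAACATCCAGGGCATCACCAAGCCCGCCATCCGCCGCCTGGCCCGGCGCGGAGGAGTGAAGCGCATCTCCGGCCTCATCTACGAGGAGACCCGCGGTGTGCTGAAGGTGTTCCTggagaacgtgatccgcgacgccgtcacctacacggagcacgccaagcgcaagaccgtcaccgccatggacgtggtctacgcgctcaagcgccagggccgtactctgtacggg
Hist1h3d: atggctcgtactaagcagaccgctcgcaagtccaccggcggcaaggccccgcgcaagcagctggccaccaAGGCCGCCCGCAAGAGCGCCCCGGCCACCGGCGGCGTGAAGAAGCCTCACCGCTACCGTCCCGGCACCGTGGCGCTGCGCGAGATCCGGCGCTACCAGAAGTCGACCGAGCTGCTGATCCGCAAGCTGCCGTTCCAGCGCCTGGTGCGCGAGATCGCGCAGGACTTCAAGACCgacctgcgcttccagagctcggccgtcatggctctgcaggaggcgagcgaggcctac
Hist1h2ba: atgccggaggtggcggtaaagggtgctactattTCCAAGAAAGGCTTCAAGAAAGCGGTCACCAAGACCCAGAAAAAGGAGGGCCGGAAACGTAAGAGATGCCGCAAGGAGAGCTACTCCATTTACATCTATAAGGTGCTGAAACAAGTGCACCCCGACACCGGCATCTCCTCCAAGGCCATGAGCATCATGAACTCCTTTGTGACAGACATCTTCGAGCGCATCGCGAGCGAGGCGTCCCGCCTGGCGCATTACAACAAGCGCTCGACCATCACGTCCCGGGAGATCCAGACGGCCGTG
Of these 300 bases the region held all in Hist1h4h, bases 1 to 188 in Hist1h4i, bases 71 to 243 in Hist1h3d and bases 34 to 300 in Hist1h2ba. The coding bases were richer in CpG than the windows upstream, with 35, 38 and 22 CpG sites in Hist1h4h, Hist1h3d and Hist1h2ba against 9, 6 and 3 in the upstream sequences printed above, which are 241, 241 and 180 bases long. Their GC content was 66.0%, 69.3% and 55.7%, against 47.7%, 32.8% and 43.3% upstream.

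The other 5 regions each served 2 genes, and 4 of the 5 lay at divergent H2A and H2B pairs. In such a pair the genes are read away from each other from a shared promoter. Of 13 divergent pairs with starts at most 1 kb apart, 12 joined an H2A to an H2B gene, and the distance between starts ran from 175 to 659 bp with a median of 278 bp. A cKO region was within 1 kb of both genes in 4 of the 13 pairs, all 4 of them H2A and H2B pairs. By gene, 8 of the 24 H2A and H2B genes in such pairs (33.3%, interval 18.0 to 53.3) had a row, and 1 of the 12 outside them (8.33%, interval 1.49 to 35.4). These intervals overlap, both hold the 29.5% of all autosomal protein-coding genes, and the 8 genes shared 4 regions. A region within 1 kb of one gene of a close pair is nearly bound to be within 1 kb of the other.

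Of the 4 regions, 2 covered bases between the starts and 2 lay over a gene body alone. At Hist1h2bf and Hist1h2ad the region (chr13:23573789-23574611, 823 bp, fold 3.21) covered all 184 bp between the starts, with 49.6% of its length over Hist1h2bf and 28.1% over Hist1h2ad. At Hist1h2ac and Hist1h2bc (chr13:23683728-23684026, 299 bp, fold 4.19, -log10 q 4.63) it covered 78 of the 250 bp between the starts and had 73.9% of its length over Hist1h2ac. At Hist1h2ag and Hist1h2bj (chr13:22043346-22043564, 219 bp, fold 2.90, the lowest fold of the 10) it lay entirely over Hist1h2bj and covered no base between the starts. The testis pair was of the same kind. The widest region, 956 bp (chr13:23745516-23746471) at a fold of 3.34, was the exception among the 10, as it lay upstream of the H2B gene Hist1h2bb, reached just past the start of the H3 gene Hist1h3c, which is read the other way, and held no coding base of either.

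The 3 testis variants were split. Hist1h2ba and Hist1h2aa shared 1 region of 346 bp (chr13:23933778-23934123), with a fold of 3.82 and a -log10 q of 3.67. The region lay wholly within the coding sequence of the TH2B gene Hist1h2ba, beginning 33 bp from its start, and ended 339 bp short of the start of the TH2A gene Hist1h2aa. Hist1h1t had no row, and the nearest region, that of Hist1h2ac and Hist1h2bc, was 11788 bp away. Without these 3 genes the share over the histone genes was 20.3% (13 of 64). With 3 genes and 1 region, whether the testis variants differ from the remaining genes could not be assessed, and their interval ran from 20.8% to 93.9%.

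Genes near the 1 kb limit were few. Among the 15 genes with a row, Hist1h2ag had the largest distance between start and region, 402 bp. Outside the limit, Hist1h2ab was nearest at 1177 bp and Hist1h3a next at 1323 bp. A further 6 genes lay between 2 and 5 kb from a region and 5 between 5 and 10 kb, while 39 were farther than that.

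**Figure D3:**
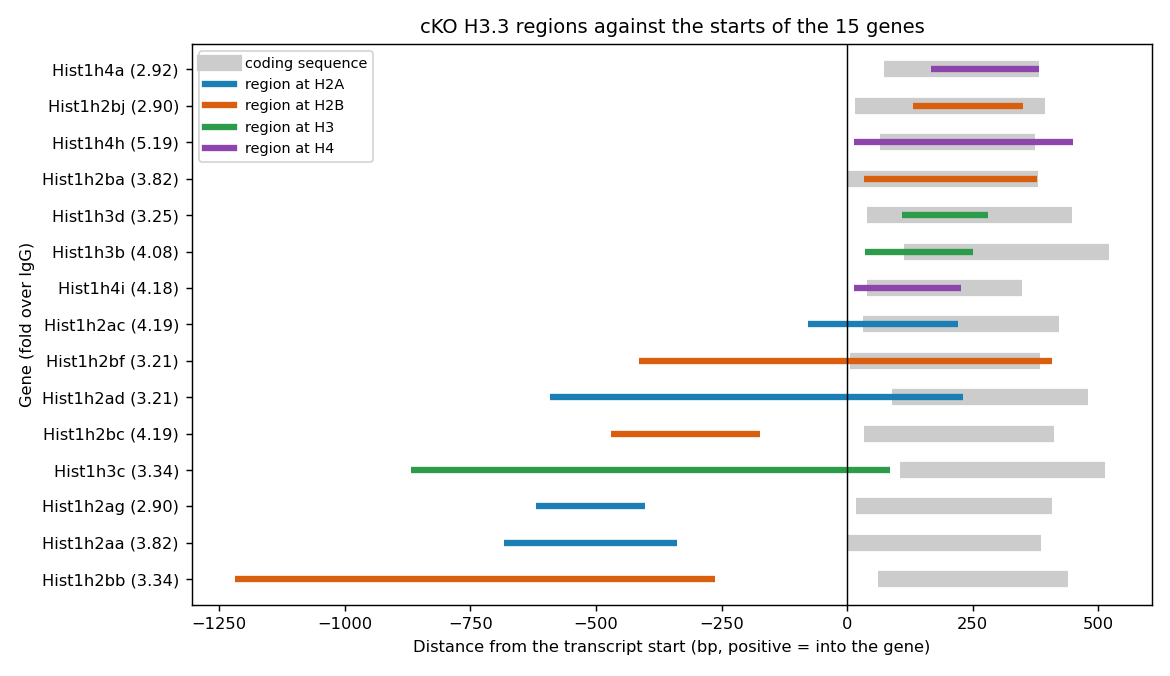
Span of the cKO H3.3 region (coloured bar, by histone type) and of the coding sequence (grey bar) relative to the transcript start of each of the 15 genes with a row, in bp and in the direction of transcription, with the fold over IgG beside the name. The bar crosses the line at 0 in 4 genes, and in 7 genes it lies wholly to the right of it, within the first 500 bp.

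Counted by gene, the regions at histone genes covered the start less often than those elsewhere. The region covered the annotated start in 4 of the 15 genes (26.7%: Hist1h2bf, Hist1h2ad, Hist1h2ac and Hist1h3c), against 58.7% of the 6145 autosomal protein-coding genes with a row. Its centre lay downstream of the start in 8 of 15 (53.3%), against 69.0%. The median offset of the centre was 71 bp into the gene, against 120 bp. All 7 genes with the centre upstream shared their region with another histone gene. At Hist1h2ag and Hist1h2bj, Hist1h2ac and Hist1h2bc, and Hist1h2ba and Hist1h2aa, a region counted as upstream of 1 gene was also counted as downstream of the other. The 53.3% and the median offset therefore do not show that the regions themselves lay farther upstream than elsewhere. These are shares of a small set in which genes share regions, and no test of the difference was made.

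The regions were also narrow, again without a test. The 10 regions had a median width of 259 bp (173 to 956), against 439 bp (quartiles 308 and 654) for the 5475 autosomal cKO regions at a coding start. Their median fold was 3.58 (2.90 to 5.19), against 4.06 (quartiles 3.43 and 4.92), and their median -log10 q was 2.89 against 3.84. In 7 of 10 the region consisted of 2 overlapping rows, and in the others, at Hist1h2ag and Hist1h2bj, at Hist1h3d and at Hist1h3b, of 1, whereas 90.0% of the regions at coding starts held 2 or more. Both rows of a region carried the same peak name and the same fold, so that they give no second measurement of it. They differed in width in 4 of the 7 regions, most of all at Hist1h2bf and Hist1h2ad (670 and 823 bp). At a -log10 q of 3 or more, 6 genes remained (8.96% of 67, against 20.8% of all genes), which is 40.0% of the 15 against 70.5% of the 6145.

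**Figure D4:**
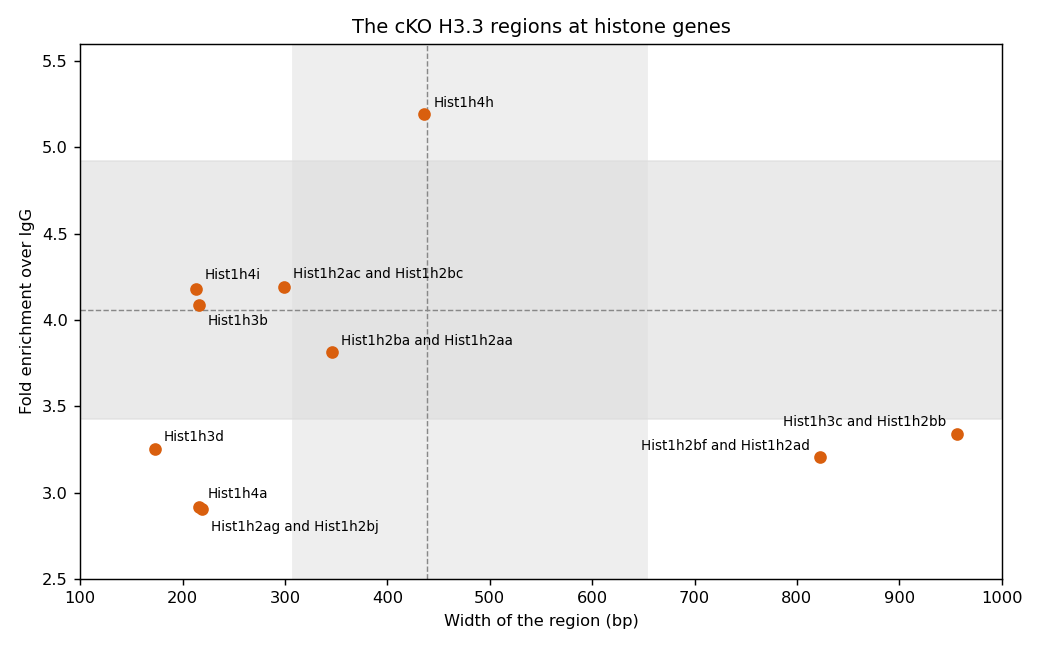
Width in bp (x axis) and fold enrichment over IgG (y axis) of the 10 cKO H3.3 regions at histone cluster genes, each named. Shaded bands are the quartile ranges and dashed lines the medians (439 bp and 4.06) of the 5475 autosomal cKO regions at a coding start, and 7 of the 10 regions lie below 400 bp.

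Sequence composition around the start was unlike that of other genes with a row. Over 500 bp either side, the 15 genes with a row had a median GC content of 54.8% and a CpG observed-over-expected ratio of 0.894, and the 52 without had 53.7% and 0.862. From 250 bp before to 50 bp after the start, the mean GC content was instead lower with a row, 44.4% against 47.7%. Over all autosomal protein-coding genes the values were 61.4% and 0.788 with a row, and 52.4% and 0.373 without. Over 500 bp either side, histone genes with and without a row were thus close in both, with a wider gap among genes at large. Set beside genes of like composition (GC between 45% and 60%, CpG ratio of at least 0.6), 15 of 60 histone genes had a row (25.0%), against 1888 of 4000 genes (47.2%, a group that includes the 60). At a CpG ratio of 0.8 to 1 the shares were 23.4% (11 of 47) and 62.9%. Set beside genes of 1 exon, they stood the other way, with 22.6% (14 of 62) against 13.4% of 1161. With both 1 exon and a CpG ratio of at least 0.6 they were 23.7% (14 of 59) against 40.9% of 342. Whether the histone genes were above or below the background therefore turned on which genes they were set beside.

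**Figure D5:**
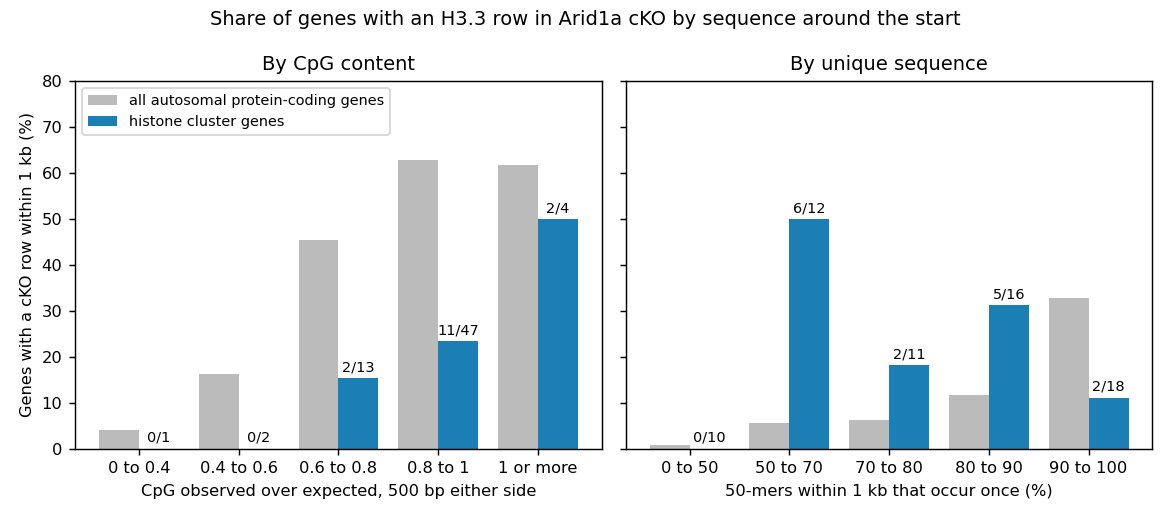
Share of genes with a cKO H3.3 row within 1 kb, in percent, by the CpG observed-over-expected ratio within 500 bp of the start (left) and by the share of 50-mers within 1 kb that occur once (right). Grey bars are all autosomal protein-coding genes and blue bars histone cluster genes, with counts above the blue bars. In the CpG bin of 0.8 to 1, which holds 47 of the 67 genes, the blue bar is at 23.4% and the grey one at 62.9%, while no gene below 50% unique sequence has a row.

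Promoter motifs differed in part by histone type. Each was searched on both strands from 250 bp before to 50 bp after the start. ATTTGCAT was found in 15 of the 67 genes (22.4%), against 1.67% of all autosomal protein-coding promoters, and the 15 were 7 H2A and 8 H2B genes. It was present in 5 of the 15 genes with a row and 10 of the 52 without. CCAAT was found in 83.6%, against 37.7%. It was in all 18 H2A, all 18 H2B, 11 of 12 H3 and 5 of 6 H1 genes, but in 4 of 13 H4 genes. TATAAA was found in 55.2%, against 13.3%, in 10 of 15 genes with a row and 27 of 52 without. CCGCCC was found in 46.3%, against 46.0%, although from 500 bp before to 100 bp after the start it was 67.2% against 52.3%. In the narrower window it was found in 10 of 13 H4 and 2 of 12 H3 genes, and in the wider one in 10 of 13 and 6 of 12. None of the 4 motifs holds another, and the genes of a divergent pair can share 1 copy. A match is a run of letters and not evidence of binding.

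Most cKO regions within the span of Hist1 lay at histone genes. Within the 2219 kb, 12 cKO regions were found, 10 of them at histone genes, which is 5.41 per Mb against 1.85 per Mb over chromosome 13. These densities take no account of the number of genes, and 5475 of the 6179 autosomal cKO regions lay at a coding start. By gene the span was not above the background, with a row at 15 of its 54 histone genes (27.8%) beside 29.5% of all genes. Of the 49 other protein-coding genes in the span, 2 had a row (4.08%), the zinc finger genes Zfp184 and Zfp322a. Of the 49, 36 were vomeronasal receptor genes, which sense pheromones and are silent in most tissues, and none of these had a row.

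Genes listed as those of replacement histones, which are not members of the clusters by symbol, had rows in 6 of 14 (42.9%), beside the 29.5% of all genes. Both genes that encode H3.3 itself were among them, H3f3b at a fold of 4.45 and H3f3a at 4.15. The others were the linker histone genes H1f0 at 4.59 and H1fx at 4.52, and the H2A.Z genes H2afz at 4.43 and H2afv at 4.23. The folds of these 6 regions, 4.15 to 4.59, were higher than those of 7 of the 10 regions at cluster genes, and their median width was 876 bp against 259 bp. No row was found at H2afx (H2A.X, phosphorylated on the sex chromosomes in meiosis), H2afy and H2afy2 (macroH2A), H2afj, Cenpa (the centromeric H3) or the germline linker genes H1foo, H1fnt and Hils1. The last 3 had CpG ratios of 0.254, 0.448 and 0.186, whereas the 6 genes with a row lay at 0.842 or higher. CpG ratio did not separate the list, as H2afx (0.982), H2afy (0.901) and H2afj (0.871) lay within the range of those 6. H2afy2 (0.789) and Cenpa (0.698) lay in between. Among all autosomal protein-coding genes at a ratio of 0.8 to 1, where most of the 14 lay, 62.9% had a row.

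Genes for factors that make or process histone mRNA had rows in 16 of 22 (72.7%), beside the 29.5% of all genes, with folds of 2.91 to 6.70 and a median of 3.93. The highest were Casp8ap2 at 6.70, a component of the histone locus body, and Ncbp3 at 6.10, a cap-binding protein. They were followed by Cpsf2 at 5.30, a subunit of the cleavage complex, Srrt at 5.14, which joins the cap-binding complex to 3′ end processing, and Ccne2 at 5.08, a cyclin E. The lowest were Ncbp1 at 2.91, Ncbp2 and Lsm11 at 3.09, Ccne1 at 3.21 and Cstf2t at 3.24. No row was found at Gon4l, Hinfp (which binds H4 promoters), E2f1, Lsm10, Zfp473 or Eri1 (which trims histone mRNA ends). Most of the 22 genes had a CpG ratio of at least 0.6, so that 29.5% is a low share to set beside them. Among all autosomal protein-coding genes, 45.5% had a row at a ratio of 0.6 to 0.8 and 62.9% at 0.8 to 1. Whether either list differed from genes of like composition was not tested. Both lists were described by their counts alone, and none of their 36 genes had a WT row.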

How the data were processed

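CUT&RUN was performed on 5 H3.3 libraries (2 Arid1a WT and 3 Arid1a cKO). According to the methods, reads were trimmed with Trim Galore, aligned to mm10 with Bowtie2 and cleared of PCR duplicates with Picard. Broad peaks were called with MACS2 against an IgG library of another study. That control came from pachytene-enriched cells of juvenile testes, whereas the H3.3 libraries came from adult spermatocytes, and every fold and q value rests on it. No filter on mapping quality is described. The authors combined the peaks of each genotype by overlap across libraries and deposited 1 list per genotype (12183 rows for cKO, 228 for WT). Shared calls came from 2 libraries for WT and from 3 for cKO, so that the lists were not made alike, and a gene without a row may lie below the calling threshold. The deposited values were a fold (ratio of H3.3 to the IgG-based background) and -log10 p and q values. Which library a fold was measured in is not given in the sources used here, and it may be a single one. Read depth per library is unknown, as the lists hold no counts. The number of columns of samples that could not be matched was 0.

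Rows were read against GENCODE M21 starts (within 1 kb), and rows overlapping by at least 1 bp were merged. GC, CpG, motifs and 50-mer copies were read from GRCm38. Python 3.11.15, pandas 2.3.3, numpy 2.4.6, numba 0.67.0, scipy 1.17.1 and matplotlib 3.10.9 were used. Functions were tested on simulated data, with 400 of 400 planted rows and 200 of 200 planted copies recovered. The members and lists were chosen with earlier results of these data known. Genes were named by rule: the testis variants, all H1, Hist2, Hist3 and Hist4 genes, the 20 highest folds (15 had one), the widest and narrowest regions, those nearest the limit, and, of the other lists, the 5 highest, 5 lowest and absent ones. Genes with under 50% unique sequence, the 2 other genes of the span, Hist1h2be and Hist1h3a were named after their values were seen. Alternatives covered the distance, the threshold, the rows per region, the transcripts, the unit, repeats and windows.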

Additional observations from a re-analysis of the deposited data

How the results depend on the processing

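No paired analysis was possible because the deposited lists hold combined replicates, and leaving out a replicate could not be run for the same reason. Over 23 results and 154 alternatives, 124 values moved little and 30 moved. For counts, a change of up to 1.5-fold was scored as moving little, so that 10 or 11 genes in place of 15 were scored so. Many of the 124 were counts of 0, which a stricter setting cannot raise. The tally is therefore no measure of how stable the results were. No single value reversed, but the difference in mean GC content between genes with and without a row changed sign with the window. With a row required over the first base of a transcript, 4 of the 67 genes remained (5.97%, against 22.8% of all autosomal protein-coding genes), all in Hist1 (4), with 2 H2A, 1 H2B, 1 H3 and 0 H4 genes and 0 testis variants, and the median width of the rows rose from 299 to 746.5 bp. At a -log10 q of at least 3, 6 genes were left (8.96% against 20.8%), 6 in Hist1, with 2 H2A, 2 H2B, 1 H3 and 1 H4. At a -log10 q of at least 5, 1 gene was left (1.49% against 9.56%), 1 in Hist1, with 0 H2A, 0 H2B, 0 H3 and 1 H4, and 0 testis variants. With regions of at least 2 rows, 1 H3 gene was left of 3. Among the 34 genes with at least 80% unique 50-mers, 7 had a row (20.6%, against 31.8% of 19153 genes), 7 in Hist1, with 1 H2A, 2 H2B and 1 H3. From 250 bp before to 50 bp after the start, the mean GC content was lower with a row (44.4%) than without (47.7%), whereas over 500 bp either side it was slightly higher (54.0% and 53.4%). With 500 bp before to 100 bp after, CCGCCC was found in 67.2% of the genes against 52.3% of all genes, so that the equal shares of the narrower window (46.3% and 46.0%) did not hold. The cause of these moves was not tested. The alternative that used the first coding base was chosen after seeing the data and gave 15 genes. The WT count was 0 in each alternative run. Distances of 500 bp and 2 kb gave 15 and 17 genes.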
